A study of Mus musculus with 4 samples.

Results

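The striatum of HDQ315/+ mice was compared with the striatum of HDQ+/+ mice, gene by gene. The genes were those with a gene name and a mean of at least 1 FPKM (fragments per kilobase of transcript, scaled to the size of the library) over 4 libraries. Of 29144 features in the table, 5934 had no gene name and 12966 met the rule. Of these, 122 were genes of short non-coding RNAs, whose length makes FPKM unreliable, and they were set aside, which left 12844 genes. Each change is the log2 ratio of FPKM + 1, HDQ315/+ over HDQ+/+, which understates the change of genes at low levels. A gene was called higher or lower from 1.5-fold on that scale, a log2 ratio of 0.58 in size. Ratios of the deposited scaled counts are given beside it, with a 95% interval from the fragments of both libraries that covers counting error only.

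HDQ315/+ mice carry 1 mutant huntingtin allele and 1 wild-type allele, and HDQ+/+ mice carry 2 wild-type alleles. Both were of the C57BL/6J background and 21 weeks old, as were HDQ150/150 and HDQ200/200 mice, with 2 mutant alleles each, whose libraries enter the filter on mean FPKM and are otherwise given beside the results. RNA was taken from the dissected striatum and selected for poly A before sequencing in paired ends, with 1 library for each genotype. With a single library on each side the spread between mice is unknown, and no test was made. The number of animals behind a library is not given in the sources used here. Xist, transcribed from the inactive X of females, was at 13.3 FPKM in HDQ315/+ and 24.3 FPKM in HDQ+/+, and the Y-linked gene Ddx3y was at 3.98 FPKM in HDQ315/+ and 7.43 FPKM in HDQ+/+, so transcripts of both sexes were present in either library.

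Huntington's disease follows from a lengthened CAG repeat in the huntingtin gene, which lengthens a glutamine tract in the protein. The striatum is made up mostly of inhibitory projection neurons, which receive dopamine and cortical glutamate and feed the direct and indirect output pathways. In patients and in mouse models these neurons lose expression of many of the genes that mark them. The cortex, the thalamus and the choroid plexus of the lateral ventricle lie close to the striatum in the brain.

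The HDQ315/+ library held 26324790 fragments and the HDQ+/+ library 36877653, against 25058825 in HDQ150/150 and 33468906 in HDQ200/200. Genes of the mitochondrial genome took 11.3% of the scaled counts in HDQ315/+, 15.4% in HDQ150/150, 9.10% in HDQ200/200 and 7.53% in HDQ+/+. Of the summed FPKM they took 18.1% in HDQ315/+, 36.4% in HDQ150/150, 26.1% in HDQ200/200 and 23.4% in HDQ+/+, so the order of HDQ315/+ and HDQ+/+ turned. Features without a gene name took 62.3% of the summed FPKM in HDQ315/+ and 45.5% in HDQ+/+. Even so, the HDQ315/+ and HDQ+/+ libraries listed mt-Co1 at 0, along with the joint entry mt-Atp6,mt-Atp8,mt-Co3. The HDQ315/+ library stood apart from the other 3 in transcripts of liver and of thalamus, and the HDQ+/+ library in transcripts of the choroid plexus. Each is described below with its values. With 1 library per genotype no comparison could be made without these libraries, so levels in HDQ150/150 and HDQ200/200 are given beside the results they touch.

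Of the 12844 genes, 373 (2.90%) were higher in HDQ315/+ than in HDQ+/+ and 271 (2.11%) were lower, 5.01% in all, so that 57.9% of the called genes were higher. After centring on the median of all genes, which lay at 0.04, the counts were 293 and 352 (45.4% higher), with the upper quartile made equal 263 and 380 (40.9%), on scaled counts 613 and 699 (46.7%), and after correction for transcript length 243 and 285 (46.0%). The most frequent direction among the called genes therefore turned with the scaling. For 226 of the 373 and 215 of the 271 genes, the whole interval of the ratio of scaled counts also lay past 1.5-fold, which held for 2.00% of all genes upward and 2.27% downward. Genes called higher had a median level of 11.6 FPKM in HDQ315/+ and 5.58 FPKM in HDQ+/+, and genes called lower had a median of 6.43 FPKM in HDQ315/+ and 12.1 FPKM in HDQ+/+. At 4-fold there were 29 genes higher, of which 19 stood in liver lists and 7 in the list of thalamic relay neurons, and 2 genes lower. Of the list members tested, 17 of 21 plasma protein, 6 of 10 liver metabolism and 3 of 26 thalamic genes passed the filter only through HDQ315/+. These had to be high there, so their place among the higher genes is not a result. With the liver, thalamic and habenular lists left out, 329 genes were higher and 271 lower, or 250 and 350 (41.7% higher) when the remaining genes were also centred on their median.

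**Figure D1:**
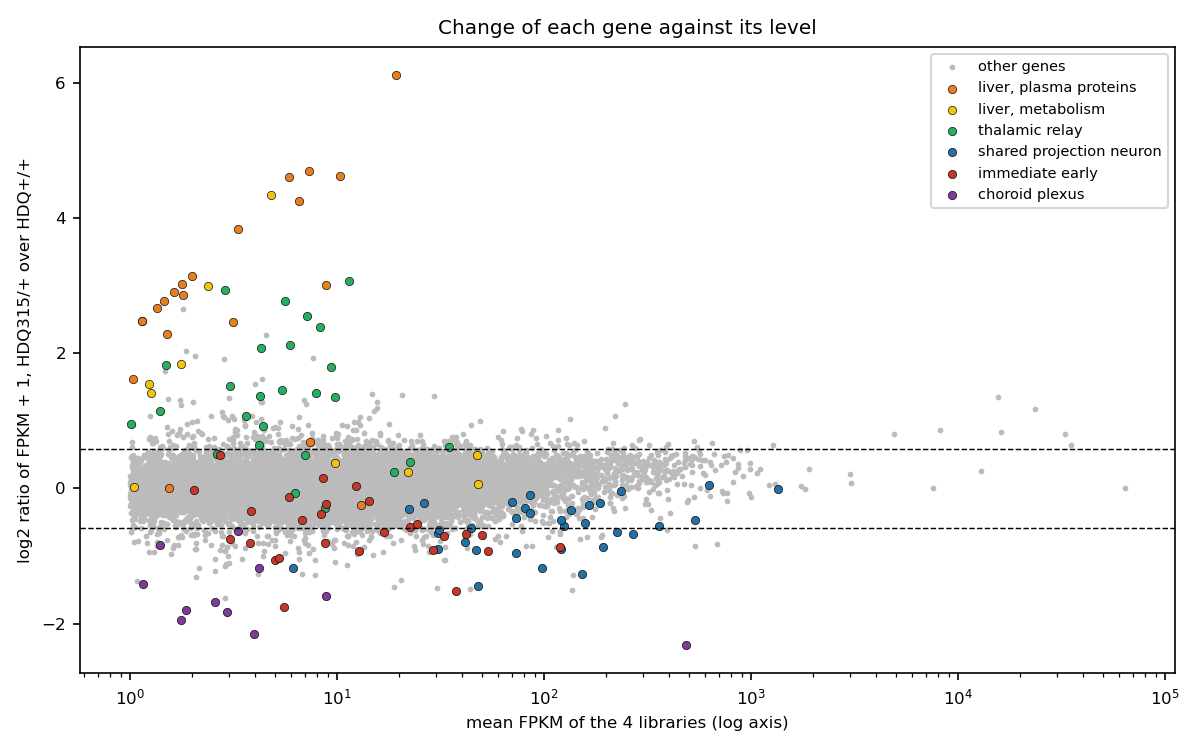
Log2 ratio of FPKM + 1, HDQ315/+ over HDQ+/+, for each of the 12844 genes against its mean FPKM over the 4 libraries (log axis), with members of 6 gene lists coloured and the 1.5-fold limits dashed. Liver and thalamic genes lie at the top, up to 6.11 for Alb, and choroid plexus genes at the bottom, down to −2.31 for Ttr. Of these, 17 of 21 plasma protein and 5 of 11 choroid plexus genes passed the filter only through the library where they were high.

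Htt (chromosome 5, 34761740 to 34912521, mm10), the huntingtin gene, stood at 4.78 FPKM in HDQ315/+, against 7.56 FPKM in HDQ+/+, from 1808 and 4120 fragments. Its log2 ratio was −0.57, just under the size for a call, and its ratio of scaled counts was 0.635 (0.600 to 0.671). Htt passed that size with a pseudocount of 0.1 (−0.65), on scaled counts (−0.66), after upper quartile scaling (−0.62) and after median centring (−0.61), and lay at −0.36 after correction for transcript length. The table does not separate the mutant and the wild-type allele. None of the 15 tested genes beside Htt on chromosome 5, Htt included, was called (median −0.03, against 0.04 for all genes). Mfsd10, a membrane transporter gene, was the highest of them at 10.6 FPKM in HDQ315/+ and 7.20 FPKM in HDQ+/+ (0.50), and Adra2c, the alpha-2C adrenergic receptor gene, was at 15.5 FPKM in HDQ315/+ and 20.1 FPKM in HDQ+/+ (−0.35).

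Transcripts of hepatocytes, the main cells of the liver, were present in the HDQ315/+ library and, for most of the genes listed, at or near 0 in the other 3. Hepatocytes secrete most plasma proteins and carry out urea synthesis, drug oxidation and much of lipid transport. The promoters of Alb, Fabp1 and Serpina1e are shown because these are abundant liver genes whose promoters hold the letters GTTAAT, a motif known from promoters of liver genes. Each is the 250 bases before the RefSeq start of the gene on GRCm38.p6, 5′ to 3′ on the strand of the gene, with GTTAAT in capitals.
Alb, chr5:90460620-90460869, plus strand: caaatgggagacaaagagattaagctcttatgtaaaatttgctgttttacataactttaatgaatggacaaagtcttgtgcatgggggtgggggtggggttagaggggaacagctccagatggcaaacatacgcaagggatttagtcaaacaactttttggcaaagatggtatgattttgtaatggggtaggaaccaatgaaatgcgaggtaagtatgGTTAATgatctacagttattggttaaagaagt
Fabp1, chr6:71199629-71199878, plus strand: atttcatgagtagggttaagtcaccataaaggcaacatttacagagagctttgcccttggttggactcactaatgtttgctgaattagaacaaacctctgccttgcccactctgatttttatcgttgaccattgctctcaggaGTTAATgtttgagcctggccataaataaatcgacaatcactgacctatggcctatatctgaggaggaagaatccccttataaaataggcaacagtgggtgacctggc
Serpina1e, chr12:103956898-103957147, minus strand: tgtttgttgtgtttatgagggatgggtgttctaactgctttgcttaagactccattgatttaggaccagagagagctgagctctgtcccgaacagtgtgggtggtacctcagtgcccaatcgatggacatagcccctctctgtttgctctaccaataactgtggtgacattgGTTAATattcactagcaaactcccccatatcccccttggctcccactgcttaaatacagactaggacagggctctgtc
On either strand, GTTAAT occurred in 14 of 50 promoters (28.0%) of the listed plasma protein genes and 6 of 44 promoters (13.6%) of the listed metabolic genes, against 6.43% of all 32851 promoters. A match to these letters is a description of the sequence and not a binding site.

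Among secreted plasma proteins, Alb (chromosome 5, 90460889 to 90476603), the albumin gene, stood at 77.0 FPKM in HDQ315/+, 0.118 in HDQ150/150, 0.101 in HDQ200/200 and 0.132 in HDQ+/+, from 3896, 6, 7 and 10 fragments. Its log2 ratio was 6.11, the highest of all genes, and its ratio of scaled counts was 564 (306 to 1176). Apoa2, which encodes an apolipoprotein of high-density lipoprotein, was at 39.4 FPKM in HDQ315/+, 1.10 in HDQ150/150, 0.398 in HDQ200/200 and 0.647 in HDQ+/+ (log2 ratio 4.61). Apoa1, the main protein of the same particle, was at 25.6 FPKM in HDQ315/+ and 0.393 FPKM in HDQ+/+ (4.25), and Apoc1 at 29.7 FPKM in HDQ315/+ and 2.80 FPKM in HDQ+/+ (3.01). The other mutant libraries lay at the level of HDQ+/+ or under it for Apoa1 and Apoc1, at 0.240 and 1.73 FPKM in HDQ150/150 and 0.0799 and 1.09 FPKM in HDQ200/200.

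The major urinary proteins, which mouse liver secretes in amounts that depend on sex and strain, were present too. Mup3 was at 28.9 FPKM in HDQ315/+ and 0.158 FPKM in HDQ+/+ (log2 ratio 4.69). Mup20 was at 23.4 FPKM from 349 fragments in HDQ315/+ and had no fragment in HDQ+/+, so that its scaled count was at least 168-fold higher, with HDQ+/+ set at 3 of its fragments, the upper limit that a count of 0 allows. The genes of this family are near-identical copies, so the split of fragments among Mup1, Mup3, Mup20 and the merged features is uncertain. The same holds for the alpha-1-antitrypsin copies, of which Serpina1e was at 13.3 FPKM from 546 fragments in HDQ315/+ and at 0 in each of the other libraries, at least 263-fold higher than HDQ+/+.

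Among genes of hepatocyte metabolism, Fabp1, the fatty acid binding protein of liver, was at 19.2 FPKM from 225 fragments in HDQ315/+ and at 0 in the other 3 libraries, at least 108-fold higher than HDQ+/+. Cyp2e1, a cytochrome P450 that oxidises ethanol, was at 8.39 FPKM in HDQ315/+, 0.389 in HDQ150/150, 0.601 in HDQ200/200 and 0.184 in HDQ+/+ (log2 ratio 2.99). Cps1, the first enzyme of the urea cycle, lay under the filter on mean FPKM with 101 fragments in HDQ315/+ and 1 in HDQ+/+. Besides Fabp1, the 5 most abundant members of the list in HDQ315/+ were Phyh, Gstp1, Cdo1 and Gls2, which brain cells also express. Phyh was at 56.5 FPKM in HDQ315/+ and 39.9 FPKM in HDQ+/+ (0.49), Gstp1 at 52.8 FPKM in HDQ315/+ and 50.5 FPKM in HDQ+/+ (0.06), and Cdo1 at 27.1 FPKM in HDQ315/+ and 22.7 FPKM in HDQ+/+ (0.24). Gls2, a glutaminase gene, was at 11.02 FPKM in HDQ315/+ and 8.27 FPKM in HDQ+/+ (0.37). None of these 4 was called, and Gstp1 turned negative with the upper quartile and after length correction.

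The plasma protein list had 58 features in the table, of which 57 had more than 3 fragments in HDQ315/+, and 39 had more than 3 fragments in that library alone. The metabolic list had 56 features, of which 54 and 30 met the same limits. The share of all features that met these limits was not counted, so these counts have no background beside them. HDQ315/+ had the highest FPKM of the 4 libraries in 55 of the 58 and in 54 of the 56 features, against 37.0% of all genes tested. That share is of genes past the filter, while 37 and 46 of the listed features lay under it, so the sets are unlike. Only 21 and 10 of the members passed the filter on mean FPKM, and most of these passed it through HDQ315/+ itself, so their calls are not counted as a result. The transcription factors of hepatocytes were at low levels throughout: of 12 members HDQ315/+ was the highest in 7, with Hnf4a, a nuclear receptor gene, at 18 fragments in HDQ315/+ and 2 in HDQ+/+. All liver lists together, 126 features, held 795.6 CPM in HDQ315/+, 241 in HDQ150/150, 232 in HDQ200/200 and 248 in HDQ+/+, where CPM is the summed fragments of the list relative to all fragments of the library. These sums include the members that brain cells express. In HDQ315/+ 1 of these features was at 0, and in HDQ+/+ 53 were. The source of the liver transcripts and their part in other results were not tested.

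**Figure D2:**
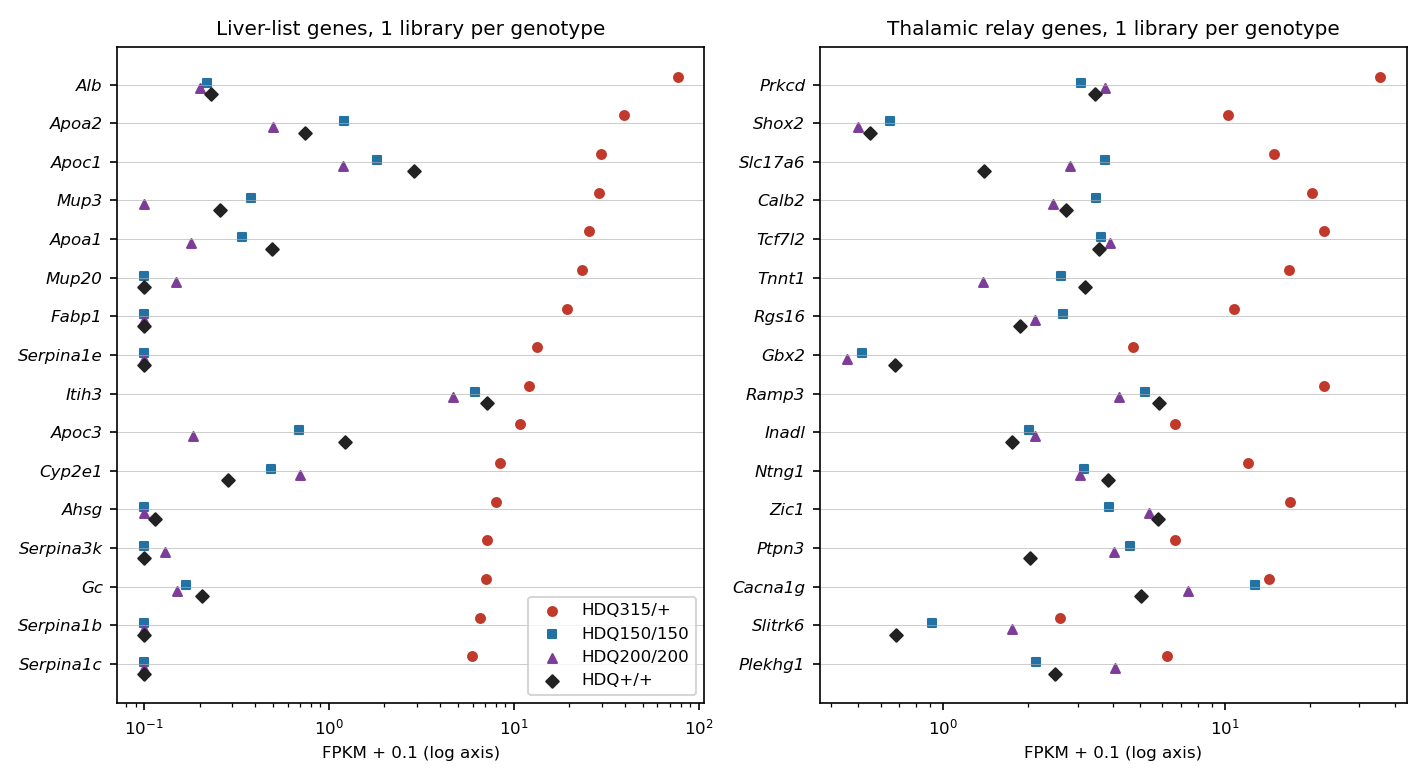
FPKM + 0.1 (log axis) in the 4 libraries, 1 per genotype, for the 16 most abundant called liver-list genes in HDQ315/+ (left) and the 16 thalamic relay genes with the highest log2 ratio (right). The HDQ315/+ points lie to the right of the other 3 in every row shown, by the widest margin for Alb at 77.0 FPKM in HDQ315/+ against 0.132 FPKM in HDQ+/+.

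Most of the listed genes of thalamic relay neurons, the glutamatergic cells that carry sensory and motor signals to the cortex, were higher in HDQ315/+. Prkcd (chromosome 14, 30595354 to 30626255), the protein kinase C delta gene, stood at 35.5 FPKM in HDQ315/+, 2.98 in HDQ150/150, 3.65 in HDQ200/200 and 3.36 in HDQ+/+ (log2 ratio 3.06, ratio of scaled counts 10.4 with an interval of 9.40 to 11.6). Shox2, a homeobox transcription factor gene, was at 10.1 FPKM in HDQ315/+, 0.549 in HDQ150/150, 0.399 in HDQ200/200 and 0.449 in HDQ+/+ (2.94). Slc17a6, the vesicular glutamate transporter of thalamic and other subcortical neurons, was at 14.8 FPKM in HDQ315/+, 3.66 in HDQ150/150, 2.71 in HDQ200/200 and 1.30 in HDQ+/+ (2.78). For Prkcd and Shox2 the 3 other libraries lay close together, while for Slc17a6 the HDQ+/+ library was the lowest.

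Transcription factors of the developing and adult thalamus were among them. Tcf7l2, an effector of Wnt signalling, was at 22.4 FPKM in HDQ315/+ and 3.48 FPKM in HDQ+/+ (2.38), and Gbx2 was at 4.60 FPKM in HDQ315/+ and 0.576 FPKM in HDQ+/+ (1.83). Among other members, the calcium buffer gene Calb2 was at 20.3 FPKM in HDQ315/+ and 2.64 FPKM in HDQ+/+ (2.55), and the troponin gene Tnnt1 at 16.8 FPKM in HDQ315/+ and 3.09 FPKM in HDQ+/+ (2.12). Rgs16, a regulator of G protein signalling, was at 10.7 FPKM in HDQ315/+ and 1.77 FPKM in HDQ+/+ (2.08). Of the 27 members in the table, HDQ315/+ was the highest of the 4 libraries in 23, against 37.0% of all genes tested. Of 26 members tested, 3 passed the filter only through HDQ315/+, Shox2 and Gbx2 among them, and had to be high there. Of the 23 that passed on the mean of the other 3 libraries, 17 were higher and 0 lower, with a median of 1.35, against 2.90% higher and a median of 0.04 over all genes tested. Over the 26 tested, the medians of the list in the other mutants, which share the HDQ+/+ library, were 0.01 in HDQ150/150 and 0.10 in HDQ200/200. In HDQ150/150, 5 members were higher and 2 lower, against 2.92% and 3.32% of all genes. In HDQ200/200, 4 members were higher and 1 lower, against 5.36% and 8.77% of all genes. Cacna1g, a T-type calcium channel gene, was high in the other mutants too, at 14.2 FPKM in HDQ315/+, 12.7 in HDQ150/150, 7.26 in HDQ200/200 and 4.95 in HDQ+/+. Among the members under the fold, Lhx2 had a log2 ratio of 0.24, Amotl1 of 0.51, Rora of 0.50, Adarb1 of 0.39 and Cbln2 of −0.07. Lhx9 missed the filter, with 162 fragments in HDQ315/+ and 8 in HDQ+/+.

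Genes of the habenula, which borders the thalamus, showed no such change among the 3 members tested, with log2 ratios from −0.22 to 0.13. Members under the filter differed by fragments, with Irx2 at 24 in HDQ315/+ and 3 in HDQ+/+, Gpr151 at 51 in HDQ315/+ and 27 in HDQ+/+, and Pou4f1 at 15 in HDQ315/+ and 5 in HDQ+/+, so that part of the list was higher in FPKM and part was not. In bulk tissue, more cells of a type and more RNA per cell cannot be told apart, here or in any result below.

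Some hippocampal genes were higher in HDQ315/+. C1ql2, a secreted synaptic organiser of dentate granule cells, was at 6.15 FPKM in HDQ315/+, 0.879 in HDQ150/150, 0.362 in HDQ200/200 and 0.842 in HDQ+/+ (log2 ratio 1.96). Spink8 was at 4.34 FPKM from 58 fragments in HDQ315/+ and 0.608 FPKM from 12 fragments in HDQ+/+ (1.73), and Fibcd1 at 5.29 FPKM in HDQ315/+ and 2.78 FPKM in HDQ+/+ (0.74). C1ql2 and Spink8 passed the filter only through HDQ315/+. Of the 5 members that passed on the other 3 libraries, Fibcd1 was the only one called, against 2.90% of all genes called higher. Calb1, Wfs1, Mpped1 and Prox1 lay between −0.18 and 0.32, with a median of −0.08 over the 5. Under the filter, Lct had 166 fragments in HDQ315/+ and 23 in HDQ+/+, and Dsp 201 in HDQ315/+ and 81 in HDQ+/+.

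Genes of cortical glutamatergic neurons moved both ways. Neurod6, a transcription factor gene of excitatory cortical neurons, was at 18.9 FPKM in HDQ315/+, 19.5 in HDQ150/150, 14.04 in HDQ200/200 and 6.55 in HDQ+/+ (log2 ratio 1.40). Neurod2 (0.82) and Neurod1 (0.76), of the same family, were called higher as well. In contrast Tbr1, a transcription factor gene of deep layers, was at 6.13 FPKM in HDQ315/+ and 9.97 FPKM in HDQ+/+ (−0.62). Slc17a7, the vesicular glutamate transporter that defines cortical excitatory neurons, was at 71.7 FPKM in HDQ315/+ and 57.0 FPKM in HDQ+/+ (0.33, under the fold). The list of 16 had 3 higher and 2 lower, against 2.90% and 2.11% of all genes, with a median of 0.19. In HDQ150/150 the median was 1.13, with 11 higher and 0 lower, against 2.92% and 3.32% of all genes. In HDQ200/200 it was 0.64, with 10 higher and 1 lower, against 5.36% and 8.77% of all genes. Both share the HDQ+/+ library.

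Of 5 hypothalamic neuropeptide genes tested, Cartpt (−1.04) and Pomc (−0.62) were lower, Cartpt from 26 fragments in HDQ315/+ and 101 in HDQ+/+, and Pomc from 35 in HDQ315/+ and 93 in HDQ+/+. Pomc passed the filter only through HDQ+/+ and had to be high there. Of the 4 members that passed with HDQ+/+ left out of the mean, 1 was lower, against 2.11% of all genes, with a median of −0.28. The median of −0.55 over the 5 turned to 0.08 without the filter. The genes of dopamine and serotonin neurons tested, Th, Ddc and Slc18a2, lay between −0.12 and 0.40 and none was called.

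Genes of the striatal projection neurons were lower in HDQ315/+ or under the fold, and none was called higher. Cnr1, the CB1 cannabinoid receptor gene, was at 29.8 FPKM in HDQ315/+, 29.1 in HDQ150/150, 50.2 in HDQ200/200 and 82.7 in HDQ+/+ (log2 ratio −1.44, ratio of scaled counts 0.350 with an interval of 0.337 to 0.363). Scn4b, a sodium channel beta subunit, was at 117 FPKM in HDQ315/+, 86.8 in HDQ150/150, 119 in HDQ200/200 and 284 in HDQ+/+ (−1.27). Pde10a, the phosphodiesterase that breaks down cyclic nucleotides in these cells, was at 69.2 FPKM in HDQ315/+, 51.4 in HDQ150/150, 113 in HDQ200/200 and 157 in HDQ+/+ (−1.17). All 3 mutant libraries were under HDQ+/+ for each of these genes, and HDQ150/150 was the lowest of the 4.

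Ryr1, a calcium release channel gene, was at 5.10 FPKM in HDQ315/+ and 12.8 FPKM in HDQ+/+ (−1.18), and the diacylglycerol kinase gene Dgkb at 51.9 FPKM in HDQ315/+ and 102 FPKM in HDQ+/+ (−0.95). The phosphodiesterase gene Pde7b was at 39.6 FPKM in HDQ315/+ and 75.1 FPKM in HDQ+/+ (−0.91). Of 33 shared projection neuron genes tested, 14 were lower, 0 higher and 19 under the fold, with a median of −0.55, against 2.11% lower over all genes. Ppp1r1b, which encodes the phosphoprotein DARPP-32 and defines the projection neurons, was at 602 FPKM in HDQ315/+ and 830 FPKM in HDQ+/+ (−0.46, under the fold). Other members lay closer to 0. Pcp4, a calmodulin regulator gene, was at 1790.0 FPKM in HDQ315/+ and 1795 FPKM in HDQ+/+ (0.00). Hpca, the hippocalcin gene, was at 759 FPKM in HDQ315/+ and 731 FPKM in HDQ+/+ (0.05), and Gng7, a G protein subunit gene, at 267 FPKM in HDQ315/+ and 274 FPKM in HDQ+/+ (−0.04). The list median was −0.93 in HDQ150/150 and −0.80 in HDQ200/200, with 28 and 21 of the 33 lower, against 3.32% and 8.77% of all genes lower in those comparisons. Under the pseudocounts, filters and scalings tried, 13 to 17 members of the list were called lower and 0 higher.

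Of the genes that mark the direct pathway, Drd1a, the D1 dopamine receptor gene, was at 44.7 FPKM in HDQ315/+ and 85.9 FPKM in HDQ+/+ (−0.93). Pdyn, the dynorphin precursor gene, was at 25.3 FPKM in HDQ315/+ and 41.9 FPKM in HDQ+/+ (−0.70), and the muscarinic receptor gene Chrm4 at 22.1 FPKM in HDQ315/+ and 34.6 FPKM in HDQ+/+ (−0.62). The other 6 of the 9 members tested were under the fold, among them Tac1, the substance P precursor gene, at 298 FPKM in HDQ315/+ and 286 FPKM in HDQ+/+ (0.06). Of the indirect pathway, Gpr52, an orphan receptor gene, was at 20.2 FPKM in HDQ315/+ and 38.8 FPKM in HDQ+/+ (−0.91). Penk, the enkephalin precursor gene, was at 570 FPKM in HDQ315/+, 305 in HDQ150/150, 247 in HDQ200/200 and 1029.5 in HDQ+/+ (−0.85), and Adora2a, an adenosine receptor gene, was at 76.8 FPKM in HDQ315/+ and 139 FPKM in HDQ+/+ (−0.85). Drd2, the D2 dopamine receptor gene, was at 62.1 FPKM in HDQ315/+ and 85.5 FPKM in HDQ+/+ (−0.45, under the fold). The list medians were −0.26 over 9 direct pathway genes and −0.65 over 6 indirect pathway genes, with 3 lower in each, against 2.11% of all genes. For Penk and Adora2a the HDQ315/+ level lay between HDQ+/+ and the other 2 mutants. Striosome and matrix genes, which mark the compartments of the striatum, had 0 of 7 called, with log2 ratios from −0.49 for Kremen1 to 0.08 for Lypd1. The liver and thalamic transcripts described above were in the same library, and their part in these lower values was not tested.

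**Figure D3:**
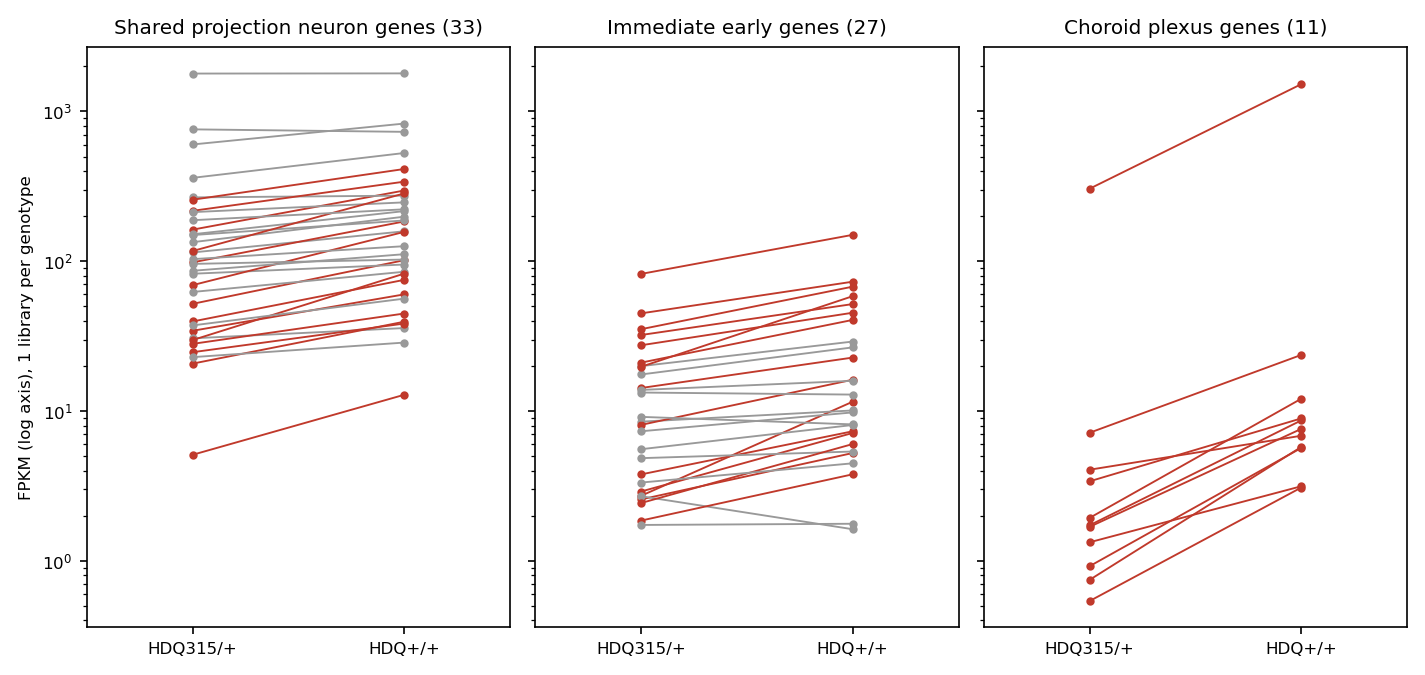
FPKM (log axis) of each tested member of 3 gene lists in the HDQ315/+ library (left) and the HDQ+/+ library (right) of each panel, joined by a line, red where the gene was called lower. Lower calls were made for 14 of 33 shared projection neuron genes, 15 of 27 immediate early genes and 11 of 11 choroid plexus genes, 5 of which passed the filter only through HDQ+/+.

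Immediate early genes, which neurons transcribe within minutes of synaptic activity, were lower in HDQ315/+ for 15 of the 27 listed and under the fold for the others. Many are switched on by calcium and cyclic AMP through the transcription factor CREB, whose motif contains the letters TGACG. The promoters of Egr2, Nr4a1 and Fos are shown because the first 2 had the largest changes and Fos is the standard marker of activity. Each is the 250 bases before the RefSeq start on GRCm38.p6, with TGACG, or CGTCA for the opposite strand, in capitals.
Egr2, chr10:67537619-67537868, plus strand: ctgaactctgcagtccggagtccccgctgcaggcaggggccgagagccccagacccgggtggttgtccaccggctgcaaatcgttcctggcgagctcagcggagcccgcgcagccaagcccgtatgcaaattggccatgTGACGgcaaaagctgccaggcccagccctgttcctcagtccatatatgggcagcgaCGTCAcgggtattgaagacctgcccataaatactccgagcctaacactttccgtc
Nr4a1, chr15:101266596-101266845, plus strand: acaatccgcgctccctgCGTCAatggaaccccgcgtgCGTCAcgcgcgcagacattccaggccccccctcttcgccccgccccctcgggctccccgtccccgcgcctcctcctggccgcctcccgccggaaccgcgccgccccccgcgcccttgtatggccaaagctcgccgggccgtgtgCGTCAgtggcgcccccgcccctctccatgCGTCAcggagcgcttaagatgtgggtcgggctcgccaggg
Fos, chr12:85473640-85473889, plus strand: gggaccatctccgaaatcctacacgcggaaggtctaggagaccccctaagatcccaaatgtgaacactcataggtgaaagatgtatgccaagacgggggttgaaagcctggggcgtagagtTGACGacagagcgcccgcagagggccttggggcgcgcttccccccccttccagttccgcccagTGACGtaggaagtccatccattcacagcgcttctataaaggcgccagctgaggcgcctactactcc
On either strand, TGACG occurred in 18 of 32 promoters (56.2%) of the listed immediate early genes, against 17.8% of all 32851 promoters and 5 of 50 promoters of the plasma protein genes. The count is of promoters, several of which can belong to 1 gene.

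Egr2 (chromosome 10, 67537819 to 67542188), a zinc finger transcription factor gene, was at 2.72 FPKM in HDQ315/+, 4.18 in HDQ150/150, 3.61 in HDQ200/200 and 11.5 in HDQ+/+ (log2 ratio −1.75, ratio of scaled counts 0.248 with an interval of 0.216 to 0.285). Nr4a1 (chromosome 15, 101266846 to 101274794), an orphan nuclear receptor gene, was at 19.7 FPKM in HDQ315/+, 40.2 in HDQ150/150, 32.3 in HDQ200/200 and 58.4 in HDQ+/+ (−1.52). Fos was at 8.08 FPKM in HDQ315/+, 16.6 in HDQ150/150, 10.4 in HDQ200/200 and 16.2 in HDQ+/+ (−0.92). HDQ315/+ was the lowest of the 4 libraries for these 3 genes.

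The antiproliferative factor gene Btg2 was at 2.90 FPKM in HDQ315/+ and 7.13 FPKM in HDQ+/+ (−1.06), and Fosl2, of the Fos family, at 2.43 FPKM in HDQ315/+ and 6.02 FPKM in HDQ+/+ (−1.03). Arc, whose protein removes glutamate receptors from synapses, was at 35.2 FPKM in HDQ315/+, 69.5 in HDQ150/150, 42.2 in HDQ200/200 and 67.6 in HDQ+/+ (−0.92). Egr3, another of the Egr family, was at 21.0 FPKM in HDQ315/+ and 40.6 FPKM in HDQ+/+ (−0.92). Of 27 members tested, 15 were lower, against 2.11% of all genes, 0 higher and 12 under the fold, with a median of −0.67, and HDQ315/+ was the lowest of the 4 libraries in 17, against 22.4% of all genes. The medians in the other mutants were −0.05 in HDQ150/150 and −0.47 in HDQ200/200, both against the same HDQ+/+ library. Under the other pseudocounts and scalings, after length correction and without the filter, 10 to 17 of the 27 were lower. Among the 13 members with a mean of at least 10 FPKM, 9 were lower. Bdnf, the neurotrophin gene, was at 2.70 FPKM in HDQ315/+ and 1.62 FPKM in HDQ+/+ (0.49) and was called higher with a pseudocount of 0.1 and on scaled counts, while Jun (0.04), Klf4 (−0.02) and Nr4a3 (−0.12) differed little.

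Genes of the choroid plexus, the epithelium in the ventricle that secretes cerebrospinal fluid, were lower in HDQ315/+ in every member that passed the filter. Ttr (chromosome 18, 20665250 to 20674326), the transthyretin gene, was at 305 FPKM in HDQ315/+, 63.9 in HDQ150/150, 49.2 in HDQ200/200 and 1519.9 in HDQ+/+ (log2 ratio −2.31). Kl, the klotho gene, was at 1.93 FPKM in HDQ315/+ and 12.1 FPKM in HDQ+/+ (−2.16), and Folr1, a folate receptor gene, at 1.73 FPKM in HDQ315/+ and 8.65 FPKM in HDQ+/+ (−1.82). The potassium channel genes Kcne2 (−1.95) and Kcnj13 (−1.80) and the secreted inhibitor gene Sostdc1 (−1.68) were also among the 14 lowest genes. In all 16 members of the table, 5 of them under the filter, the HDQ+/+ library was the highest of the 4. The share of all genes with HDQ+/+ the highest was not counted, so this count has no background beside it. Of the 11 tested, 5 passed the filter only through HDQ+/+, Kcne2, Kcnj13, Sostdc1 and Otx2 among them, and had to be high there. The 6 that passed on the mean of the other 3 libraries were all lower (median −1.71), against 2.11% of all genes tested. Summed, the list held 374 CPM in HDQ315/+, 88.2 in HDQ150/150, 81.1 in HDQ200/200 and 1902 in HDQ+/+, so that HDQ315/+ lay between HDQ+/+ and the other mutants. Enpp2, the autotaxin gene, which the choroid plexus expresses in abundance as do oligodendrocytes, was at 94.8 FPKM in HDQ315/+, 81.4 in HDQ150/150, 95.9 in HDQ200/200 and 271 in HDQ+/+ (−1.51). How much plexus each dissection took and genotype cannot be told apart with 1 library each.

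Genes of ependymal cells, which bear motile cilia and line the same ventricle, did not follow the choroid plexus. Of 10 tested, Meig1 (0.98), Ccdc153 (0.66) and Rarres2 (0.60) were higher and 0 were lower, against 2.90% and 2.11% of all genes. Foxj1, the transcription factor that defines ciliated cells, was at 5.004 FPKM in HDQ315/+ and 5.28 FPKM in HDQ+/+ (−0.07). After length correction Ccdc153 (0.39) and Rarres2 (0.49) were under the fold and the median of 0.16 turned to −0.14. Without the filter it was −0.01. Of 9 genes of meningeal fibroblasts tested, Igf2, the insulin-like growth factor gene, was at 6.24 FPKM in HDQ315/+ and 14.2 FPKM in HDQ+/+ (−1.07), and Igfbp2, a binding protein of that factor, at 12.9 FPKM in HDQ315/+ and 26.5 FPKM in HDQ+/+ (−0.99), both of which choroid plexus tissue also contains. The other 7, the collagen gene Col1a2 (−0.06) and the decorin gene Dcn (−0.19) among them, were under the fold.

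Blood was measured by haemoglobin and erythroid genes. The beta-globin feature Beta-s was at 86.1 FPKM in HDQ315/+, 201 in HDQ150/150, 55.4 in HDQ200/200 and 212 in HDQ+/+ (log2 ratio −1.29), and Alas2, the haem synthesis gene of red cells, was at 1.16 FPKM in HDQ315/+ and 3.86 FPKM in HDQ+/+ (−1.17). The merged features Hba-a1,Hba-a2 (−1.49 and −1.35) and Hbb-b1,Hbb-b2 (−1.46) share fragments with near-identical copies and their split is uncertain. Of 6 tested, 5 were lower (median −1.32), against 2.11% of all genes, the exception being Slc25a37 (−0.24), a mitochondrial iron carrier that other cells express too. The list held 118 CPM in HDQ315/+, 224 in HDQ150/150, 108 in HDQ200/200 and 253 in HDQ+/+, and its median was −0.10 in HDQ150/150 and −1.77 in HDQ200/200.

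For interneurons of the striatum, a minority of its cells, 2 of 16 listed genes were higher and 1 lower, against 2.90% and 2.11% of all genes. Cck, the cholecystokinin gene, which cortical and thalamic neurons also express, was at 258 FPKM in HDQ315/+, 366 in HDQ150/150, 134 in HDQ200/200 and 123 in HDQ+/+ (log2 ratio 1.07). Pvalb, the parvalbumin gene, was at 48.2 FPKM in HDQ315/+ and 31.0 FPKM in HDQ+/+ (0.62, or 0.32 and under the fold after length correction), and the choline transporter gene Slc5a7 at 4.25 FPKM in HDQ315/+ and 7.46 FPKM in HDQ+/+ (−0.69). Chat, the enzyme that defines cholinergic neurons, was at 4.68 FPKM in HDQ315/+ and 6.24 FPKM in HDQ+/+ (−0.35, under the fold), and Sst, which defines another class, at 423 FPKM in HDQ315/+ and 333 FPKM in HDQ+/+ (0.34). The median over 16 genes was −0.24, and it turned to 0.29 among genes of at least 10 FPKM.

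Glial and vascular genes mostly stayed under the fold, as did 95.0% of all genes tested. Over all genes 2.90% were called higher and 2.11% lower, 5.01% in all. The single calls among microglia genes and among endothelial and mural genes were near that share. Among 14 astrocyte genes, Agt, the angiotensinogen gene, which astrocytes and hepatocytes both secrete, was at 12.7 FPKM in HDQ315/+, 3.96 in HDQ150/150, 4.09 in HDQ200/200 and 5.59 in HDQ+/+ (1.05). The connexin gene Gjb6 was called higher (0.61), the glutamate transporter gene Slc1a2 (−0.72) and the bicarbonate transporter gene Slc4a4 (−0.65) lower, and Gfap was at 36.4 FPKM in HDQ315/+ and 30.6 FPKM in HDQ+/+ (0.25). Of 18 oligodendrocyte genes, 2 were lower, among them the myelin gene Mobp (−0.69), while Mbp was at 1967 FPKM in HDQ315/+ and 1974.5 FPKM in HDQ+/+ (−0.01). On scaled counts the ratio of Mobp was 0.824 (0.801 to 0.848), inside 1.5-fold. Of 16 microglia genes only Cx3cr1, the fractalkine receptor gene, was called, at 8.12 FPKM in HDQ315/+ and 12.9 FPKM in HDQ+/+ (−0.61), and of 18 endothelial and mural genes only Kdr, the VEGF receptor gene, at 1.23 FPKM in HDQ315/+ and 2.45 FPKM in HDQ+/+ (−0.63). After correction for transcript length Kdr (−0.50), Cx3cr1 (−0.57), Slc1a2 (−0.51), Slc4a4 (−0.47) and Gjb6 (0.46) were under the fold. None of 10 oligodendrocyte precursor genes was called.

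Outside the liver, thalamic and habenular lists, the highest gene was Abhd12b, which encodes a protein of the serine hydrolase family, at 6.52 FPKM in HDQ315/+, 0.204 in HDQ150/150, 0.320 in HDQ200/200 and 0.191 in HDQ+/+ (log2 ratio 2.66, from 195 fragments in HDQ315/+ and 11 in HDQ+/+). Rasd1, a small GTPase gene induced by glucocorticoids, was at 13.0 FPKM in HDQ315/+, 2.00 in HDQ150/150, 1.14 in HDQ200/200 and 1.92 in HDQ+/+ (2.26). Car3, a carbonic anhydrase gene that liver, muscle and fat express, was at 5.61 FPKM in HDQ315/+, 0.832 in HDQ150/150, 0.356 in HDQ200/200 and 0.619 in HDQ+/+ (2.03). In each of these 3 the HDQ315/+ library stood alone, at several times the level of any other library. Abhd12b and Car3 lay under 1 FPKM in each of the other libraries. They passed the filter only through HDQ315/+ and had to be high there.

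Next came the copine gene Cpne7 (1.93), Rab37, a GTPase of secretory vesicles (1.92), the calcium-binding protein gene Cabp7 (1.62), and Prdm8, a zinc finger regulator (1.54). Prdm8 was higher in all 3 mutant libraries, at 5.12 FPKM in HDQ315/+, 5.86 in HDQ150/150, 3.88 in HDQ200/200 and 1.10 in HDQ+/+. Ccdc136 (1.38), the copine gene Cpne6 (1.37), the merged feature mt-Nd2,mt-Tw of the mitochondrial genome (1.35) and Cbln1, a secreted synaptic organiser (1.34), complete the 14 with C1ql2, Spink8 and Neurod6 above. Of 10 features of the mitochondrial genome tested, 7 were higher and 0 lower, against 2.90% and 2.11% of all genes. Cpne6 was at 50.3 FPKM in HDQ315/+ and 18.9 FPKM in HDQ+/+, and Cbln1 at 6.02 FPKM in HDQ315/+ and 1.78 FPKM in HDQ+/+. None of the 14 was lower in any other setting tried.

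Of the 14 lowest genes, 7 were choroid plexus genes, 1500015O10Rik (−1.60) being the one not yet named, 2 were immediate early genes and 2 were globin features. The remaining 3 were Enpp2, above, Snhg9 and Peg3as. Snhg9, a host gene of small nucleolar RNA, rested on 1 fragment in HDQ315/+ and 7 in HDQ+/+, and its ratio had an interval of 0.00459 to 1.61 that includes no change. Peg3as, antisense to the imprinted gene Peg3, was at 9.17 FPKM in HDQ315/+, 18.2 in HDQ150/150, 67.2 in HDQ200/200 and 27.2 in HDQ+/+ (−1.47). The strand of counting is not given in the sources used here, so fragments of Peg3as and of its partner cannot be told apart.

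Most listed genes of stress, metabolism and time of day stayed under the fold, as did 95.0% of all genes tested. Over all genes 2.90% were called higher and 2.11% lower. Serpina3n, an acute phase protease inhibitor of reactive astrocytes and of liver, was at 7.68 FPKM in HDQ315/+, 4.08 in HDQ150/150, 2.94 in HDQ200/200 and 2.59 in HDQ+/+ (log2 ratio 1.27), and it was the only call among 12 inflammatory and interferon genes. Of 13 glucocorticoid-responsive genes, Tsc22d3 was at 44.9 FPKM in HDQ315/+ and 27.1 FPKM in HDQ+/+ (0.71), and Zbtb16 at 2.42 FPKM in HDQ315/+ and 1.24 FPKM in HDQ+/+ (0.61), while Fkbp5 (0.06) and Sgk1 (0.24) were under the fold. Of 18 clock genes, the repressor gene Per2 (0.71) and Gm129 (0.62) were higher and Npas2 (−0.71), of the activating arm, was lower, while Nr1d1 (0.02) and the merged feature Car11,Dbp (−0.05) differed little. After length correction Gm129 was at 0.43 and under the fold.

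None of 17 glycolysis genes was called (median 0.27), the highest being Gapdh at 1209 FPKM in HDQ315/+ and 811 FPKM in HDQ+/+ (0.58), and none of 15 heat shock genes was called (median 0.16), with Hspb1 the highest at 14.7 FPKM in HDQ315/+ and 9.52 FPKM in HDQ+/+ (0.58). Of 22 cholesterol synthesis genes, Pmvk, the phosphomevalonate kinase gene, was higher at 38.3 FPKM in HDQ315/+ and 23.9 FPKM in HDQ+/+ (0.66, or 0.39 and under the fold after length correction). It was the only call in that list, near the 5.01% of all genes called, and the list median was −0.14. In all, 310 of the 373 higher and 206 of the 271 lower genes stood in none of the 31 lists.

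**Figure D4:**
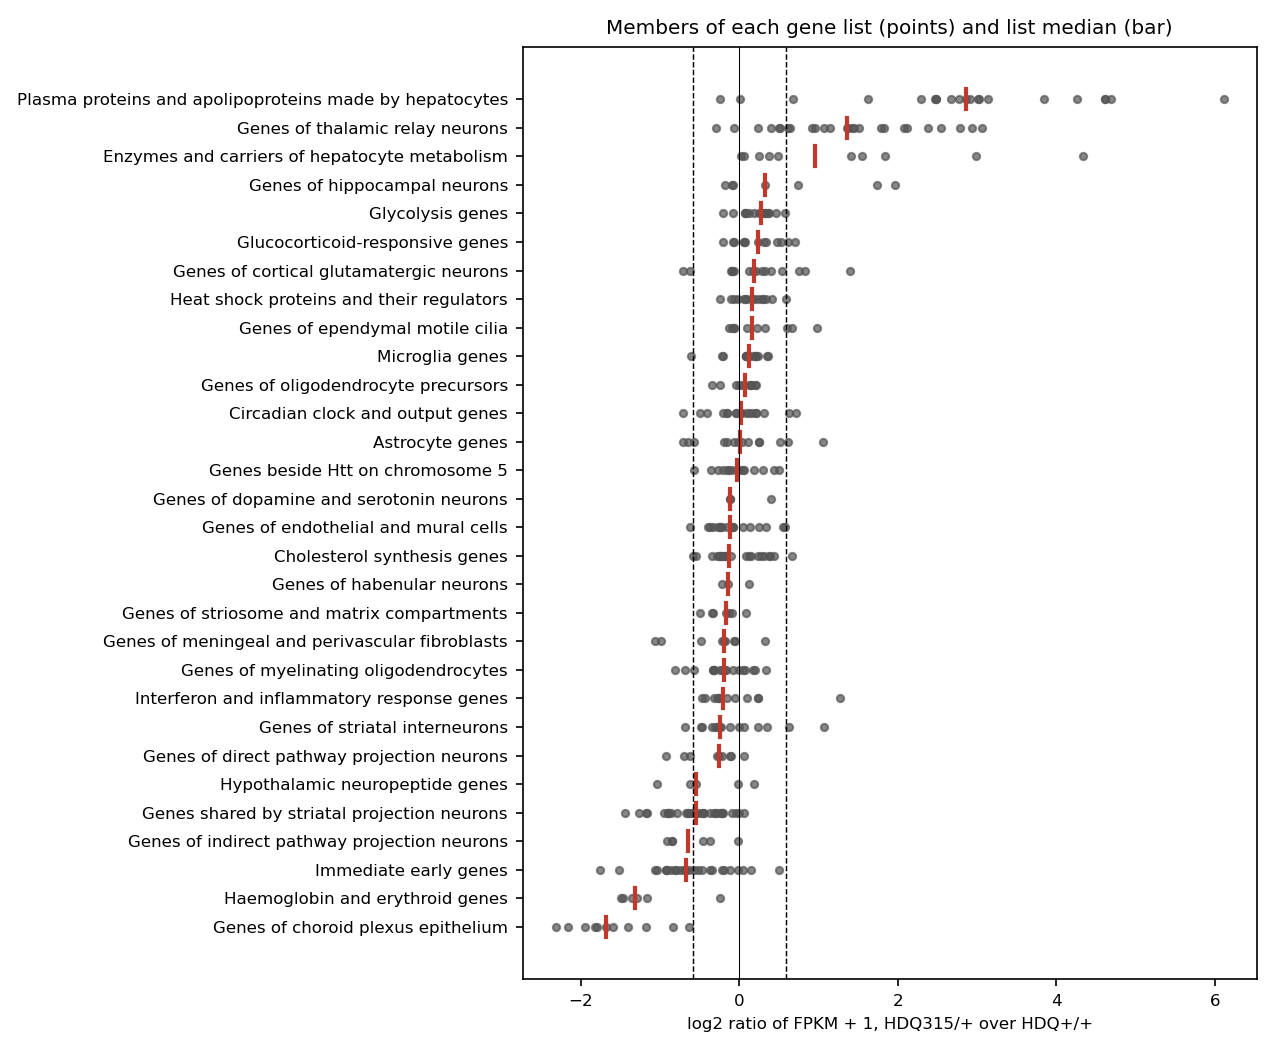
Log2 ratio of FPKM + 1, HDQ315/+ over HDQ+/+, of every tested member (grey points) of each gene list with at least 3 members tested, and the list median (red bar), with the 1.5-fold limits dashed. List medians run from 2.86 for plasma protein genes, whose members passed the filter mostly through HDQ315/+, to −1.68 for choroid plexus genes.

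The ratio also moved with transcript length. In 5 bins of genes of equal number, from the shortest to the longest transcripts, the median log2 ratio was 0.24, 0.12, 0.05, −0.03 and −0.16. In the shortest bin 7.10% of genes were higher and 1.41% lower, and in the longest bin 1.06% were higher and 4.16% lower. The same medians were 0.08, 0.04, −0.01, −0.04 and −0.09 in HDQ150/150 and −0.39, −0.18, −0.05, 0.07 and 0.31 in HDQ200/200, against the same HDQ+/+ library, so that HDQ315/+ and HDQ200/200 went opposite ways. The shared projection neuron genes had a median length of 4982 bases and the glycolysis genes 2786 bases. After correction for length the projection neuron list kept a median of −0.47 with 16 of 33 lower, the immediate early list −0.77 with 16 of 27 lower, and the glycolysis list 0.13. What length stands for in these libraries was not tested.

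**Figure D5:**
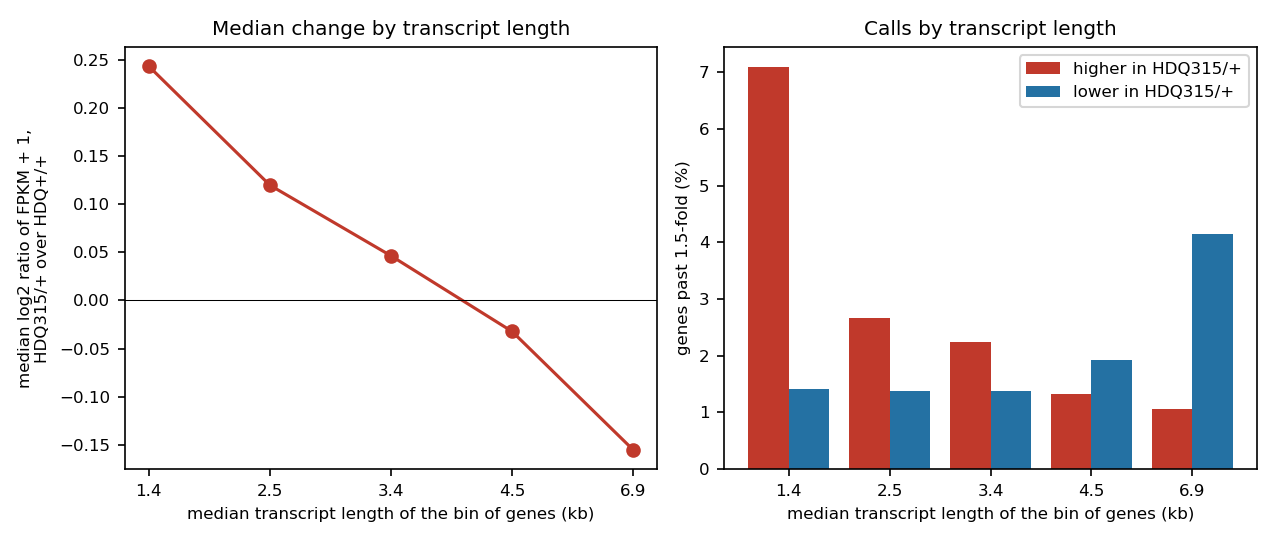
Median log2 ratio of FPKM + 1, HDQ315/+ over HDQ+/+ (left), and share of genes past 1.5-fold, higher and lower (right), for 5 bins of genes by transcript length, each placed at its median length in kilobases. The median runs from 0.24 in the shortest bin to −0.16 in the longest.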

How the data were processed

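Poly A+ RNA of striatum was sequenced in 4 libraries, 1 per genotype, assigned by the genotype in the labels. Per the submitters' processing notes, the tools were Cuffnorm, Cuffdiff and Cufflinks 2.1.1, TopHat, TopHat2 2.0.11, Bowtie2 2.1.0 and bcl2fastq 1.8.4, with the build mm10 and no role or order. The sources used here do not say which gene annotation, strand or scaling was used. FPKM values were used as deposited by the authors, per the file headers. The deposited count columns hold a scaled signal: each library has a smallest step, and after division by it 98.1% to 98.4% of values above 0 were whole to within 0.05 and were taken as fragments.

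With Python 3.11.15, pandas 2.3.3, numpy 2.4.6 and SciPy 1.17.1, log2 ratios of FPKM + 1 were computed for named genes of mean FPKM of at least 1, without short non-coding RNAs, and called from 1.5-fold. Ratios of scaled counts carry exact Clopper-Pearson 95% intervals. A gene with no fragment in HDQ+/+ was set against 3 fragments there. The scripts were checked on simulated data. Length correction took the running median over 501 genes ordered by GENCODE transcript length, known for 99.3% of genes. Promoters were read from RefSeq. Coordinates are those of the table on mm10, counted from 1. The alternatives were pseudocounts of 0.1 and 5, a filter of 10 FPKM or none, median and upper quartile scaling, scaled counts, length correction and leaving out the liver, thalamic and habenular lists. A filter on the 3 libraries other than HDQ315/+, or other than HDQ+/+, was added after seeing the data.

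Named genes were Htt, the 14 highest and 14 lowest outside the set-apart lists with scaled counts past 1.5-fold the same way, the 5 most abundant members of each main liver list, the 8 highest thalamic genes, and up to 6 of every other list by size of change with the markers that define its cell type. Other members named to show those under the fold or under the filter were chosen after their values were seen. The genes compared and the lists were chosen with earlier results of these data known. Some members of the lists are counted but not reported here by name.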

Additional observations from a re-analysis of the deposited data

How the results depend on the processing

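No paired analysis was possible because each genotype had 1 library, and for the same reason no library could be left out. The count of genes higher in HDQ315/+, 373 as reported, was 575 with a pseudocount of 0.1, 145 with 5, 160 among genes of at least 10 FPKM, 613 on scaled counts and 243 after length correction. The count of genes lower, 271 as reported, was 474, 105, 132 and 699 under the first 4 of these and 285 after length correction. Without the filter the counts were 493 and 306. Htt, at −0.57 as reported, lay at −0.65 with a pseudocount of 0.1, −0.36 with 5, −0.66 on scaled counts and −0.36 after length correction, and it has no value under the 10 FPKM filter. In these alternatives no called gene among the list members and named genes changed direction. List medians changed sign without the filter for hypothalamic (−0.55 as reported, 0.08 then), habenular (0.15), dopamine and serotonin (0.00) and ependymal (−0.01) genes. At 10 FPKM they did so for hippocampal (0.32 as reported, −0.09 then), interneuron (−0.24 as reported, 0.29 then), inflammatory (0.09) and clock (−0.01) genes, and under a scaling or length correction for astrocyte, precursor, microglia, ependymal and clock genes. With the added filter that leaves out HDQ315/+, the hippocampal median was −0.08, and the medians of the plasma protein and liver metabolism lists were 0.34 and 0.31. The cause of these moves was not tested. At 26324790 fragments in HDQ315/+ and 36877653 in HDQ+/+, 3 fragments in a transcript of 1 kb stand for 0.114 and 0.0814 FPKM, and lower levels were not detectable at this depth.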
